A study of Homo sapiens with 6 samples.

Results

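The genes described here encode 10 S100A calcium-binding proteins, S100A2, S100A4, S100A6, S100A7, S100A8, S100A9, S100A11, S100A13, S100A14 and S100A16. They were chosen by symbol from a table of 27685 genes, and all 10 were among the 16049 genes with enough counts to be tested. The cells were SZ95 sebocytes, a line from human facial sebaceous gland that carries a viral large T antigen, of wild-type genotype according to the labels. Control cells (n = 3) received the vehicle, 20% ethanol, and PM2.5 cells (n = 3) received fine particulate matter at 100 μg/mL, each for 24 h in medium free of phenol red. The PM2.5 was collected from ambient air and was carried in the same vehicle. The comparison asks what fine dust does to the transcripts of one line, so neither the spread between donors nor other glandular cells were sampled. Whether the 3 samples of a group were cultured separately is not stated, and the p-values then cover only the spread seen between them, which may be technical.

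S100 proteins are small proteins with a pair of EF-hand motifs that bind calcium, and most of them work as dimers that change shape on calcium binding and then grip a target protein. Inside the cell they act on annexins, the cytoskeleton and membrane repair. Some leave the cell by a route outside the classical secretory pathway and act as alarmins through TLR4 and the receptor for advanced glycation end products. Most of the human genes lie together in the epidermal differentiation complex on chromosome 1, and in skin S100A7, S100A8 and S100A9 are known as antimicrobial proteins whose levels rise in psoriasis and after wounding.

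Of the 10 genes, 7 changed with PM2.5 at an adjusted p under 0.05 (edgeR's quasi-likelihood test, Benjamini-Hochberg over all tested genes), with 2 higher and 5 lower. S100A2 and S100A6 rose. S100A4, S100A8, S100A9, S100A11 and S100A16 fell, whereas S100A7, S100A13 and S100A14 did not pass the test. Across all tested genes 43.6% passed, 21.7% higher and 22.0% lower, so that change as such was common in these libraries. The median log2 fold change was -0.35 over the 10 genes and 0.00 over all tested genes. In 8 of the 10 genes the control and PM2.5 libraries did not overlap, 2 of them higher and 6 lower with PM2.5, against 56.3% of all tested genes. The summed level of the 10 genes was 1255 to 1330 CPM (counts relative to the total of the library, which was scaled by edgeR's TMM factor) in control libraries and 1055 to 1078 CPM in PM2.5 libraries. Of these sums S100A11 alone held 480 to 562 CPM in control libraries and 317 to 337 CPM in PM2.5 libraries. Fewer transcripts per cell and fewer cells that express a gene cannot be told apart in these bulk libraries.

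**Figure D1:**
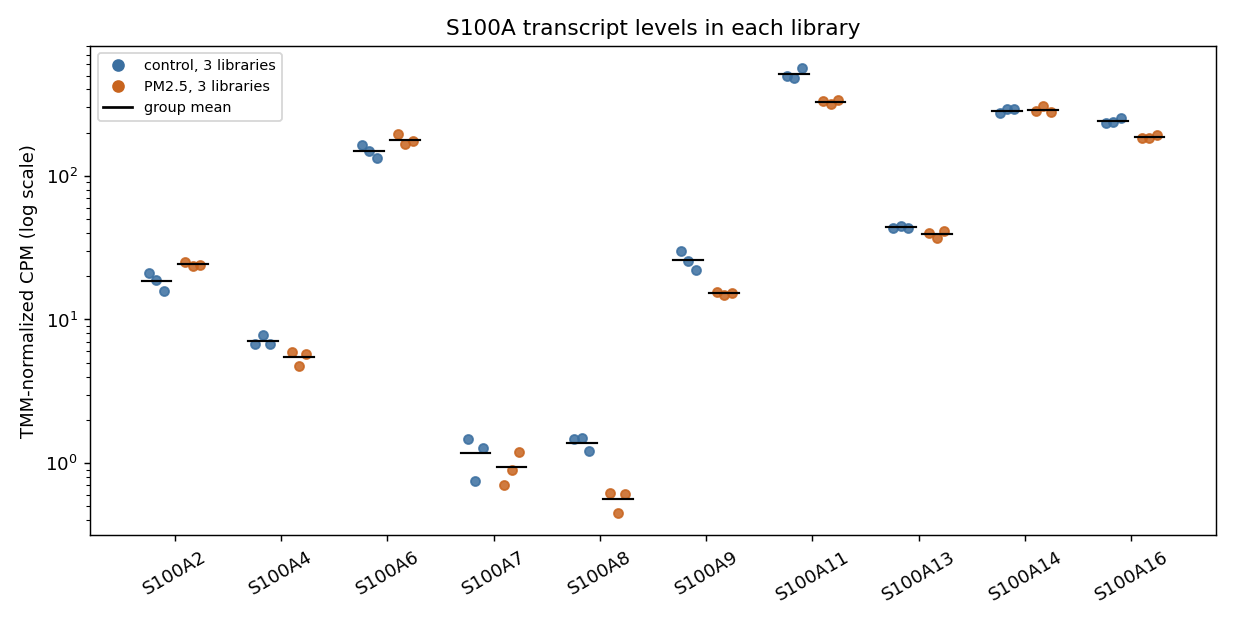
TMM-normalized CPM of the 10 S100A genes on a log axis, with a point for each of 3 control and 3 PM2.5 libraries and a line at each group mean. S100A8 and S100A9 sit apart between the groups, S100A14 and S100A7 overlap, and S100A2 and S100A6 are the genes with higher PM2.5 points throughout.

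The deposited totals were 56460553 to 71080000 counts per library, with 18253 to 18623 genes detected. KRT7, a keratin of glandular epithelium counted among the sebocyte markers, stood at 1354 to 1439 CPM in control and 874 to 1162 CPM in PM2.5 libraries and was called lower. The wax synthase genes AWAT1 and AWAT2, which mark mature sebocytes, had 0 counts throughout. Summed levels of sebocyte markers were 2754 to 2856 CPM in control and 3413 to 3855 CPM in PM2.5 libraries, with 5 of 11 tested markers higher, 2 lower and 4 not called. The most abundant of the higher markers were the lipid enzyme genes SCD (482 ± 50.7 to 1191 ± 39.8 CPM), FASN (404 ± 7.07 to 807 ± 55.3 CPM) and FADS2 (259 ± 11.4 to 424 ± 17.3 CPM). Keratinocyte markers summed to 418 to 432 CPM against 396 to 425 CPM, with DSG1 and KRT2 at 0 and 3 of 5 tested markers lower with PM2.5. Fibroblast markers summed to 46.1 to 50.9 against 55.1 to 59.1 CPM, with 2 of 3 tested markers higher and 1 lower, and melanocyte markers to 12.6 to 13.7 against 12.3 to 15.9 CPM, with MLANA and TYR at 0 and the 1 tested marker not called. The mitochondrial ribosomal RNA gene RNR2 took 0.894% to 0.923% of control counts and 0.981% to 1.09% of PM2.5 counts. The part of these shifts in the S100A results was not tested.

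The order of the levels was compared per transcript length, as CPM per kb of the RefSeq transcripts of each gene. S100A11 stood first in control libraries at 864 ± 73.2 CPM per kb (SD, n = 3). S100A14 followed at 270 ± 9.35 CPM per kb. S100A16 at 225 ± 8.82 and S100A6 at 224 ± 22.2 CPM per kb came next and did not differ beyond their spread. Below these, S100A13 stood at 75.5 ± 1.40, S100A9 at 44.8 ± 6.74, S100A2 at 18.6 ± 2.56 and S100A4 at 12.1 ± 0.991 CPM per kb. S100A8 at 2.73 ± 0.314 and S100A7 at 2.44 ± 0.785 CPM per kb were the least abundant and also lay within each other's spread. With PM2.5, S100A11 remained first at 553 ± 16.8 CPM per kb, S100A14 stood at 274 ± 15.4, S100A6 at 268 ± 22.3 and S100A16 at 173 ± 5.63 CPM per kb. S100A14 and S100A6 thus lay within their spread in PM2.5 libraries. S100A2 and S100A9 also came close, at 24.3 ± 0.713 and 26.5 ± 0.624 CPM per kb, with S100A9 above S100A2 in each PM2.5 library.

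Expressed as shares of the summed CPM per kb of the 10 genes, S100A11 made up 48.5%, 47.9% and 52.5% in control libraries 1, 2 and 3, and 39.3%, 39.0% and 40.3% in PM2.5 libraries 1, 2 and 3. S100A6 made up 14.2%, 13.3% and 11.2% in control libraries and 20.6%, 18.2% and 18.6% in PM2.5 libraries. S100A14, whose own level overlapped between the groups, took 14.99% to 16.3% of the control sum and 18.7% to 21.3% of the PM2.5 sum. These shares depend on each other, and their lengths rest on annotated transcripts rather than on those used in these cells.

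**Figure D2:**
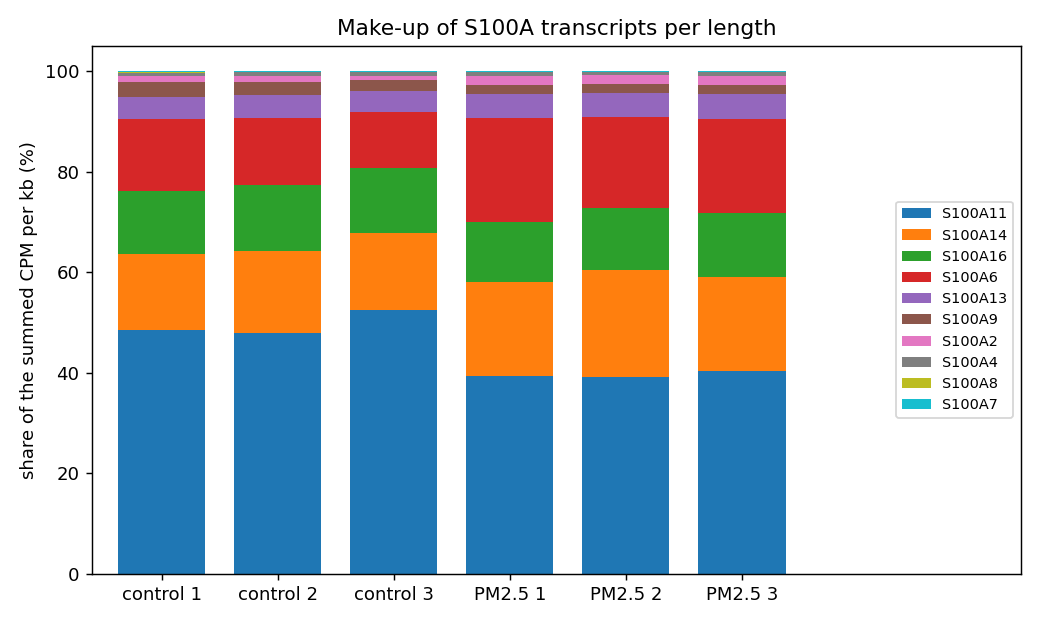
Stacked shares (%) of the summed CPM per kb of the 10 S100A genes in each of the 6 libraries. The S100A11 part is 47.9% to 52.5% in control libraries and 39.0% to 40.3% in PM2.5 libraries, and S100A8 and S100A7 are too small to see.

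S100A8 and S100A9 encode the subunits of calprotectin, which starves microbes of zinc and manganese and signals through TLR4. S100A8 was measured at 1.48, 1.49 and 1.21 CPM in control libraries 1, 2 and 3 and at 0.623, 0.448 and 0.607 CPM in PM2.5 libraries 1, 2 and 3. These are low levels, resting on 90, 93 and 82 control counts and on 38, 33 and 35 PM2.5 counts, yet every PM2.5 library lay below every control library. The log2 fold change of S100A8 was -1.32 ± 0.19 (SE) with an adjusted p of 0.00125 by edgeR, the largest change among the 10 genes. S100A9 was measured at 29.8, 25.6 and 22.1 CPM in control libraries and at 15.6, 14.9 and 15.3 CPM in PM2.5 libraries. The control libraries of S100A9 were the more scattered ones, with a coefficient of variation of 15.05% against 2.36% with PM2.5, and the groups were again separate. Its log2 fold change was -0.76 ± 0.10 with an adjusted p of 0.000962 by edgeR. Both genes kept these calls in all 14 alternative settings, in which the log2 fold change ranged from -1.42 to -1.16 for S100A8 and from -0.86 to -0.64 for S100A9.

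The levels of the paired subunits were then set against each other. Within each library S100A9 had 20.2, 17.2 and 18.3 counts per S100A8 count in control libraries and 25.1, 33.3 and 25.2 in PM2.5 libraries. All 3 PM2.5 ratios were above all 3 control ratios, and the mean log2 ratio was higher by 0.58 with PM2.5. An exact two-sided permutation test over the libraries gave p = 0.1, which is the smallest p that 3 against 3 libraries allow. Per transcript length, S100A9 exceeded S100A8 by 15.2 to 17.8 times in control and by 22.2 to 29.4 times in PM2.5 libraries. Because S100A8 and S100A9 are abundant in neutrophils and monocytes, leukocyte markers were read beside them. Of 10 such markers AIF1, ELANE, MPO and TYROBP were at 0 in all 6 libraries, and PTPRC had at most 4 counts in a library. Others were detected, with 331 to 439 counts per library for CSF1R and 258 to 341 for CD14. ITGAM had 22 to 74 counts and CSF3R 26 to 72. None of these 4 tested markers was called in the main test, in which CSF3R had a log2 fold change of 0.70 (adjusted p = 0.0629 by edgeR). CSF3R was called higher with library size as the only scaling (adjusted p = 0.0431 by edgeR). The same held with the replicate number added to the model (0.0359) and without PM2.5 replicate 1 (0.0220), both by edgeR. The 10 markers summed to 11.8 to 13.3 CPM in control and 11.2 to 13.5 CPM in PM2.5 libraries.

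**Figure D3:**
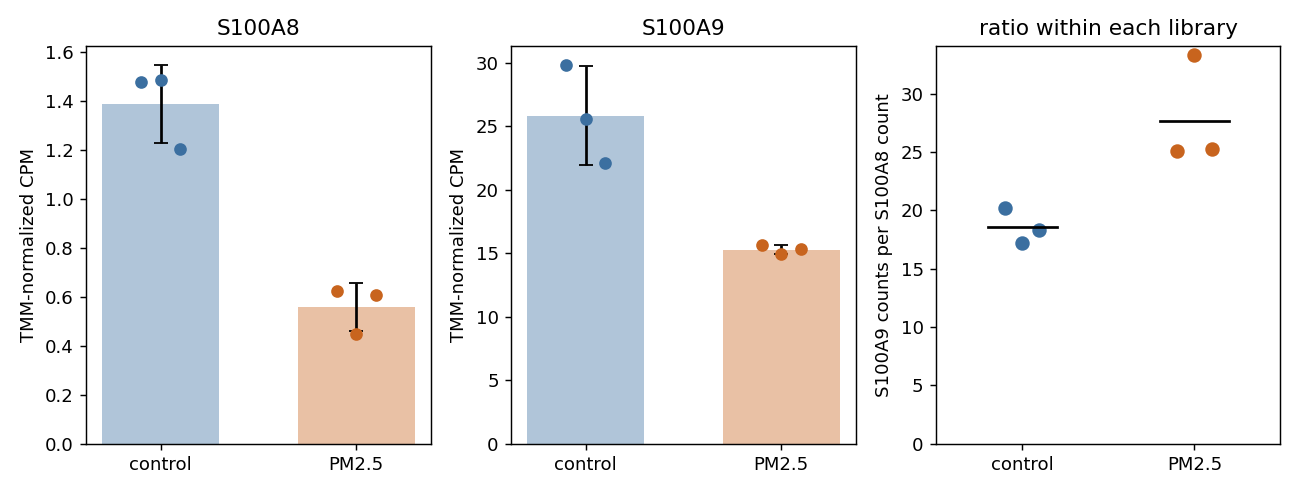
S100A8 and S100A9 levels (TMM-normalized CPM) with bars for group means, error bars for the SD and points for the 3 libraries per group, beside the S100A9 counts per S100A8 count of each library with lines at the geometric mean. Both levels are lower in every PM2.5 library, and the ratio runs from 17.2 to 20.2 in control and from 25.1 to 33.3 in PM2.5 libraries.

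S100A7, psoriasin, is an antimicrobial protein that sequesters zinc and is strongly induced in psoriatic skin. Its level was 1.48, 0.751 and 1.28 CPM in control libraries and 0.705, 0.896 and 1.197 CPM in PM2.5 libraries. The groups overlapped, and within-group variation was the largest of the 10 genes, with coefficients of variation of 32.2% in control and 26.6% in PM2.5 libraries. The log2 fold change of S100A7 was -0.33 ± 0.29, with an adjusted p of 0.375 by edgeR. Its counts were 43 to 90 per library, close to those of S100A8, and the difference between the responses of these genes was not tested. S100A7A, a close paralog of S100A7, had 0 to 2 counts per library, and S100A12, the third member of the calgranulin group with S100A8 and S100A9, had 0 to 5.

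The stretches just upstream of the start sites of these antimicrobial genes are printed because S100A8 and S100A9 fell together and S100A7 lies close to them. They come from RefSeq promoters on GRCh38.p14 and run from 45 to 16 bases before the start, with the TATA box letters TATAAA in capitals. S100A4, a gene that also fell, is shown for comparison. S100A8 has 3 annotated start windows, of which the one with the box nearest the start is shown. Another belongs to a start further downstream and holds the same TATAAA, there at -126. The remaining one holds none, while S100A9, S100A7 and S100A4 have 1 window each. The windows are chr1:153391089-153391118 (minus strand) for S100A8, chr1:153357809-153357838 (plus strand) for S100A9, chr1:153460667-153460696 (minus strand) for S100A7 and chr1:153545822-153545851 (minus strand) for S100A4.
S100A8: ggccaagcctaaccgcTATAAAaaggagct
S100A9: ccagtcaggagctgccTATAAAtgccgagc
S100A7: agagccaggctgagcctTATAAAggactgc
S100A4: gggcctggctggggTATAAAtaggtcagac
The box begins at -29 in S100A9 and in the window shown for S100A8, at -28 in S100A7 and at -31 in S100A4. On either strand of the 250 bases before the start, TATAAA was found in 6 of the 16 windows of the 10 genes. Of 35116 promoter windows 10.7% held it. The windows with TATAAA belong to 5 of the 10 genes, S100A4, S100A7, S100A8, S100A9 and S100A13. Among these 5 genes S100A4, S100A8 and S100A9 fell and S100A7 and S100A13 did not pass the test. Of the genes without TATAAA, S100A11 and S100A16 also fell, S100A2 and S100A6 rose, and S100A14 did not pass the test. A match describes letters and not a site in use.

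S100A2 is a mainly nuclear protein of basal epithelial cells. Its level was 20.9, 19.0 and 15.9 CPM in control libraries and 25.1, 23.7 and 24.0 CPM in PM2.5 libraries. The groups did not overlap, and the PM2.5 values were close together. S100A2 rose by 0.39 ± 0.10 on the log2 scale, with an adjusted p of 0.0137 by edgeR. Without PM2.5 replicate 1 the log2 fold change was 0.37 and the adjusted p by edgeR 0.0585.

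The bases before 1 of the S100A2 start sites are shown because, of the 10 genes, S100A2 alone held the AP-1 letters TGANTCA. This window, chr1:153565845-153565964 (minus strand, GRCh38.p14, RefSeq), spans the 120 bases up to the start, with AP-1 and GCGTG letters in capitals.
S100A2: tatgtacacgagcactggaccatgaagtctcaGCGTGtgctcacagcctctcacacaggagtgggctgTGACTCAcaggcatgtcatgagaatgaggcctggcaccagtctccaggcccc
The AP-1 letters begin at -52 and the GCGTG letters, the core bound by AHR with ARNT, at -88. Searched on both strands of 250 bases, TGANTCA was found in 6.57% and GCGTG in 32.2% of all windows. Of the 16 windows of the 10 genes, 1 held TGANTCA and 6 held GCGTG. The other S100A2 window held neither. The 6 windows with GCGTG belong to 5 of the 10 genes, namely S100A2 and S100A6, which rose, S100A11 and S100A16, which fell, and S100A13. The C/EBP letters TTGCNNAA, present in 9.05% of all windows, were found in 1 of the 16, that of S100A11. The NF-kappa-B motif, present in 1.73% of windows, and the grainyhead letters AACCGG, present in 5.99%, were not found in the windows of any of the 10 genes.

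S100A6, calcyclin, is a growth-associated protein that binds annexins and a ubiquitin ligase adaptor. It was measured at 163.5, 149.0 and 133.9 CPM in control libraries and at 194.5, 165.8 and 173.8 CPM in PM2.5 libraries. The groups did not overlap, although the highest control and the lowest PM2.5 library were close. S100A6 rose by 0.26 ± 0.08 on the log2 scale, with an adjusted p of 0.0385 by edgeR. The call was lost with no filter on low counts (adjusted p = 0.0554 by edgeR) and on leaving out any of 4 libraries. The adjusted p by edgeR was then 0.0871 (control replicate 2 left out), 0.0907 (control replicate 3), 0.148 (PM2.5 replicate 1) or 0.0798 (PM2.5 replicate 3).

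S100A11, calgizzarin, binds annexin A1 and takes part in growth control of keratinocytes and in membrane repair. It was measured at 497.7, 479.7 and 562.4 CPM in control libraries and at 331.5, 317.4 and 336.6 CPM in PM2.5 libraries. The groups were far apart relative to their spread. S100A11 fell by 0.64 ± 0.06 on the log2 scale, with an adjusted p of 0.000247 by edgeR, the smallest of the 10 genes. S100A16, a widely expressed S100 protein, was measured at 235.1, 236.3 and 252.1 CPM in control libraries and at 182.1, 182.2 and 192.6 CPM in PM2.5 libraries. S100A16 was tight within both groups and fell by 0.38 ± 0.05 on the log2 scale, with an adjusted p of 0.000659 by edgeR. Both genes kept their calls in all 14 alternative settings.

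S100A4, metastasin, binds non-muscle myosin and promotes cell motility. Its level was 6.72, 7.75 and 6.78 CPM in control libraries and 5.93, 4.78 and 5.78 CPM in PM2.5 libraries. The groups did not overlap, but the gap between the lowest control and the highest PM2.5 library was small. S100A4 fell by 0.37 ± 0.11 on the log2 scale, with an adjusted p of 0.0261 by edgeR. The call was lost with library size as the only scaling (adjusted p = 0.0619), with a replicate block, the replicate number added to the model (0.0541), without control replicate 2 (0.0838) and without PM2.5 replicate 2 (0.0988), all by edgeR. The annotation places S100A5 over S100A4, with 4 to 16 counts per library.

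S100A13 assists the nonclassical export of FGF1 and interleukin-1 alpha. It was measured at 43.5, 44.8 and 43.4 CPM in control libraries and at 39.8, 36.7 and 41.3 CPM in PM2.5 libraries. Every PM2.5 library lay below every control library, with a log2 fold change of -0.16 ± 0.06, but the adjusted p by edgeR was 0.0514. With limma-voom it was 0.0470. S100A13 overlaps CHTOP, which had 4878 to 6413 counts per library and itself had a log2 fold change of -0.14, and whether counting used the strand is not given in the sources used here. S100A14, an epithelial S100 protein, was measured at 273.8, 290.5 and 291.3 CPM in control libraries and at 282.4, 308.2 and 278.2 CPM in PM2.5 libraries. The groups overlapped, and the log2 fold change was 0.02 ± 0.05, with an adjusted p of 0.765 by edgeR.

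The libraries of a group did not order the genes alike. Control library 1 had the highest control level of S100A2, S100A6, S100A7 and S100A9, whereas control library 3 had the highest of S100A11, S100A14 and S100A16 and the lowest of S100A2, S100A6, S100A8 and S100A9. Among PM2.5 libraries, library 2 had the lowest level of S100A2, S100A4, S100A6, S100A8, S100A9, S100A11 and S100A13 and the highest of S100A14.

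**Figure D4:**
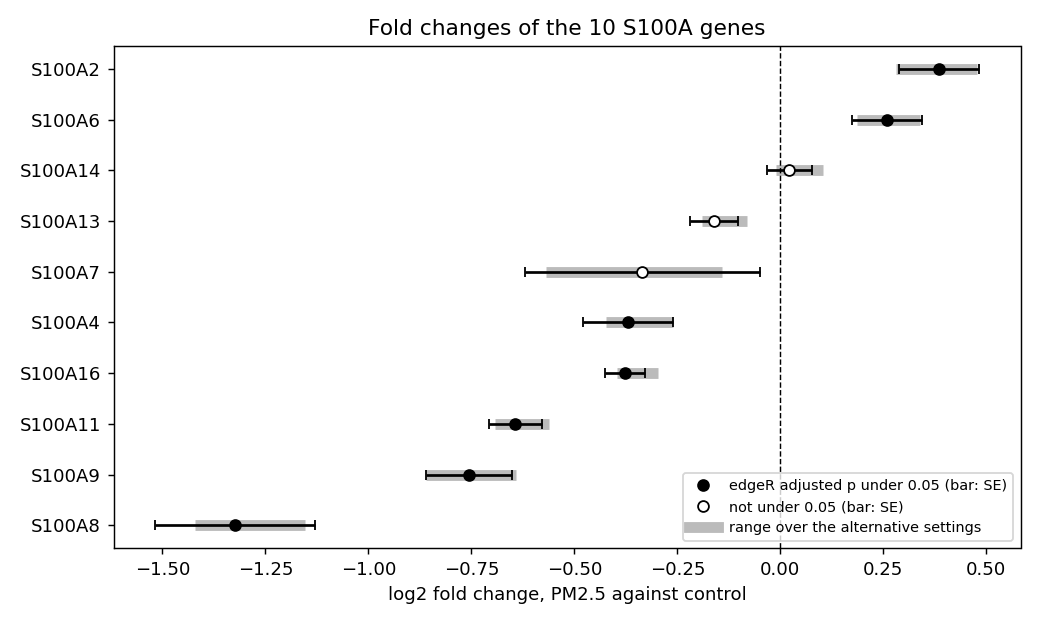
Log2 fold change (PM2.5 against control) of the 10 S100A genes, with SE bars, filled points for adjusted p under 0.05 by edgeR and grey bands for the range over 14 alternative settings. S100A8 is at -1.32 and S100A2 at 0.39, and the band of S100A14 crosses 0.

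Along the chromosome the 10 genes lie in 2 places of the complex, S100A11 near S100A10 at one end and the other 9 between PGLYRP4 and CHTOP. Within that stretch both rises and falls were called. S100A9 and S100A8 fell, S100A7 was not called, S100A6 rose, S100A4 fell, S100A3 was not called, S100A2 rose, S100A16 fell, and S100A14 and S100A13 were not called. The calls of S100A6, S100A4 and S100A2 were lost in 5, 4 and 1 of the 14 alternative settings. From S100A10 to CHTOP 32 genes were tested. Of the 22 that are not among the 10, 5 were higher and 9 lower with PM2.5 and 8 were not called. Gene order was taken from RefSeq on GRCh38.p14, while the counts were made on hg19.

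**Figure D5:**
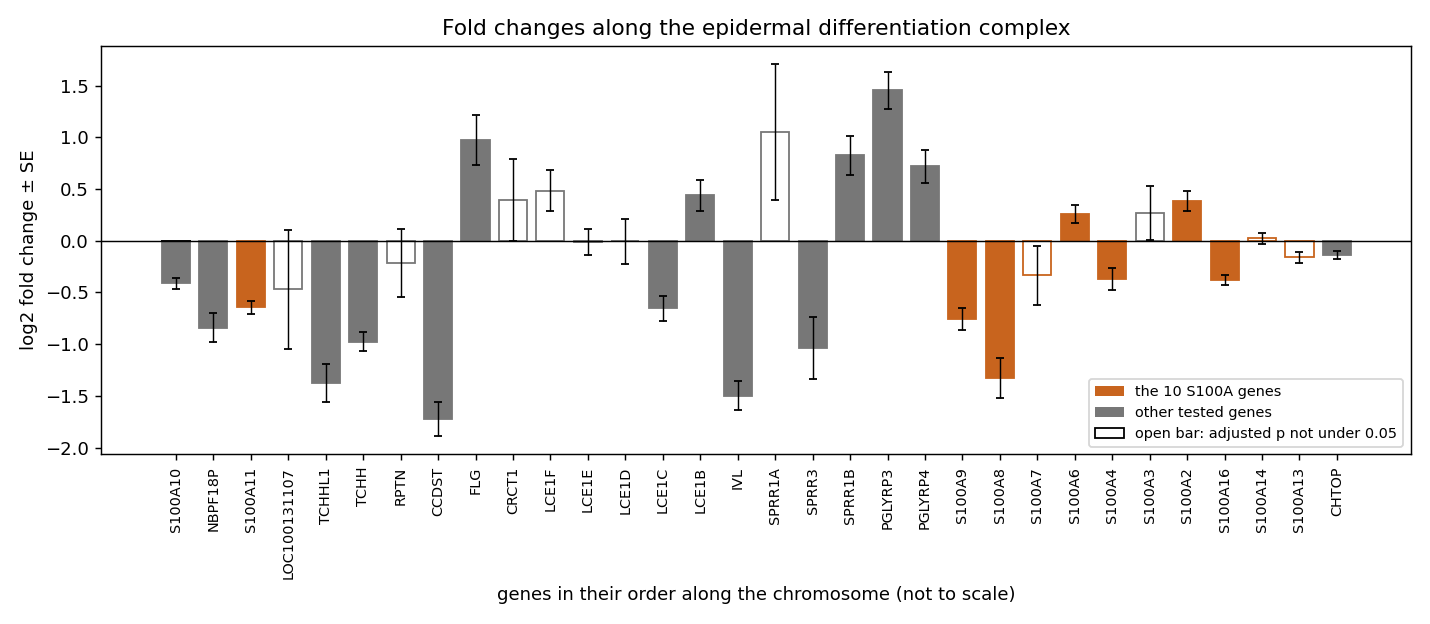
Log2 fold change with SE of the 32 tested genes from S100A10 to CHTOP in chromosomal order, with the 10 S100A genes in orange, other genes in grey and open bars where the adjusted p by edgeR was not under 0.05. From S100A6 to S100A16 called rises and falls alternate, and larger changes in both directions lie among the other genes between S100A11 and S100A9.

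Of 10 further S100 genes, 3 had enough counts to be tested, and 2 of these fell. S100A10, the partner of annexin A2 that does not need calcium, was measured at 276.4, 292.3 and 310.1 CPM in control and at 220.6, 217.6 and 222.0 CPM in PM2.5 libraries, with a log2 fold change of -0.41 and an adjusted p of 0.000574 by edgeR. S100P fell from 196 ± 7.60 to 161 ± 4.75 CPM (SD, n = 3), by 0.28 on the log2 scale with an adjusted p of 0.00230 by edgeR. S100A3, at 0.426 to 0.803 CPM over the 6 libraries, had a log2 fold change of 0.26 and was not called. S100B and S100G had 0 counts throughout. Among the fused S100 genes, whose long proteins begin with an S100 domain, TCHH fell from 32.9 ± 4.15 to 16.8 ± 0.676 CPM and TCHHL1 from 3.30 ± 0.338 to 1.28 ± 0.315 CPM. FLG, filaggrin, rose from 3.03 ± 0.378 to 5.999 ± 1.895 CPM, a call that was lost without PM2.5 replicate 1 (log2 fold change 0.82, adjusted p = 0.0534 by edgeR). RPTN had a log2 fold change of -0.22 and was not called, so that of 4 tested fused genes 1 was higher and 2 were lower.

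Receptors that S100 proteins engage outside the cell were measured in the same libraries, together with co-receptors and the adaptor MYD88. Of these 9 tested genes 2 were higher and 5 lower, with a median log2 fold change of -0.14. TLR4, a receptor for S100A8 and S100A9, fell from 8.15 ± 0.625 to 5.24 ± 0.946 CPM, and its adaptor MYD88 from 69.5 ± 1.86 to 43.3 ± 2.65 CPM. BSG, basigin, a receptor for S100A9, fell from 518 ± 18.2 to 433 ± 15.3 CPM, and ALCAM from 255 ± 30.2 to 205 ± 13.7 CPM. The ALCAM call was lost with library size as the only scaling (adjusted p = 0.0793) and without any of 4 libraries (adjusted p up to 0.101), all by edgeR. MCAM, which binds S100A8 and S100A9, rose from 50.6 ± 2.74 to 67.7 ± 3.14 CPM. LY96, the TLR4 co-receptor MD-2, rose from 0.426 ± 0.105 to 1.02 ± 0.389 CPM on 23 to 108 counts per library, with an adjusted p of 0.0549 by edgeR without control replicate 3. AGER, the receptor for advanced glycation end products, had 3.25 to 4.02 CPM in control and 3.54 to 4.11 CPM in PM2.5 libraries and was not called, and CD14 was not called either. With library size as the only scaling, 3 of the 9 were lower in place of 5. The same count came without control replicate 1, PM2.5 replicate 1 or PM2.5 replicate 3.

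Of 19 intracellular partners and cargo of S100 proteins, 3 were higher, 7 lower and 9 not called, with a median log2 fold change of -0.07. ANXA1, annexin A1, the partner of S100A11, fell from 681 ± 71.1 to 411 ± 11.4 CPM, side by side with the fall of S100A11 itself. ANXA11, a partner of S100A6, fell from 441 ± 24.3 to 306 ± 11.8 CPM, while S100A6 rose. AHNAK, a giant scaffold protein held at the membrane by S100A10 and annexin A2, fell from 4650 ± 187 to 2629 ± 177 CPM. ANXA6, annexin A6, rose from 9.75 ± 0.787 to 14.4 ± 1.15 CPM. IL1A, whose product is exported with S100A13, rose from 0.389 ± 0.110 to 0.876 ± 0.0536 CPM on 16 to 63 counts per library.

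Among 28 known regulators of S100A8, S100A9 and their relatives, 5 were higher, 15 lower and 8 not called, with a median log2 fold change of -0.24. NFKBIZ, a nuclear NF-kappa-B cofactor of the interleukin-17 response, fell from 73.0 ± 5.79 to 32.1 ± 1.90 CPM. GRHL3, a grainyhead factor of epidermal differentiation, fell from 86.6 ± 10.5 to 35.1 ± 5.27 CPM. CEBPA fell from 10.99 ± 1.17 to 5.29 ± 0.313 CPM and NFKB1 from 67.4 ± 2.42 to 46.8 ± 2.17 CPM. In the other direction TRAF3IP2, the adaptor of the interleukin-17 receptor, rose from 34.4 ± 2.27 to 42.7 ± 1.94 CPM and HIF1A from 80.8 ± 7.44 to 104 ± 7.52 CPM. Over the alternatives 10 to 17 regulators were lower and 4 or 5 higher. The 10 came with scaling by library size alone, without control replicate 1 and without PM2.5 replicate 2. The 17 came with the replicate block.

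Other antimicrobial genes of skin were read beside S100A7, S100A8 and S100A9, and 4 of 6 tested were lower and 0 higher. LCN2, lipocalin, which captures bacterial siderophores, fell from 682 ± 49.4 to 519 ± 16.3 CPM. SLPI, a secreted protease inhibitor, fell from 175 ± 1.498 to 137 ± 10.6 CPM, and PI3, elafin, from 2.51 ± 0.559 to 1.43 ± 0.159 CPM. LYZ, lysozyme, fell from 0.434 ± 0.0532 to 0.234 ± 0.0271 CPM on 12 to 31 counts, and its call was lost with DESeq2 (adjusted p = 0.0988), with the replicate block (0.0557 by edgeR) and without any of 5 libraries. A list of envelope and peptidoglycan recognition genes that share the complex with the S100A genes held 11 tested genes, of which 4 were higher, 3 lower and 4 not called. The higher ones were the envelope genes SPRR1B and LCE1B and the peptidoglycan recognition genes PGLYRP3 and PGLYRP4. The LCE1B call (log2 fold change 0.44) was lost with DESeq2 (adjusted p = 0.0586), with the replicate block (0.0606 by edgeR) and without any of 5 libraries. IVL, involucrin, fell from 112 ± 13.02 to 39.5 ± 7.76 CPM, and LCE1C from 2.54 ± 0.192 to 1.62 ± 0.116 CPM. SPRR3 fell from 0.984 ± 0.338 to 0.475 ± 0.0276 CPM, a call lost without any of 5 libraries. PGLYRP3 rose from 0.699 ± 0.128 to 1.91 ± 0.232 CPM, and SPRR1B from 0.943 ± 0.191 to 1.69 ± 0.215 CPM.

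The genes whose log2 CPM followed S100A2 most closely over the 6 libraries were KLHL5 (Pearson r = 0.994), APOL6 (0.993) and FAM35DP (0.989). For S100A11 they were TRMO, CBX2 and NONO, each with r over 0.99. Of 13950 genes with at least 1 CPM in the higher group, 192 (1.38%) reached r = 0.95 with S100A2 and 1708 (12.2%) with S100A11. These correlations are descriptions over 6 libraries that share 2 treatments, so a gene that differs between the groups in the same direction scores high.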

How the data were processed

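Polyadenylated RNA from 3 control and 3 PM2.5 samples was sequenced from stranded libraries. The authors deposited whole-number read counts per gene, not normalized, made on hg19. Their processing notes name Trimmomatic 0.32, HISAT2 2.0.5, StringTie 1.3.3b and DESeq2, and neither the counting program nor its use of strand is given in the sources used here. The column name of PM2.5 replicate 1 has an extra hyphen. Genes passing filterByExpr in edgeR 4.0.16 (R 4.3.3), at its default count of 10 and total of 15, were scaled by TMM and tested two-sided with glmQLFit and glmQLFTest, treatment being the only factor. P-values were adjusted by the Benjamini-Hochberg method over 16049 genes. The SE is the absolute log2 fold change divided by the square root of F. TMM-normalized CPM give the levels, with means ± SD (n = 3). The test was also run on counts simulated with the spread of these libraries, which cannot show whether the samples of a group were cultured separately. Motifs were searched in RefSeq promoter windows, and per-length levels used GENCODE transcripts matched to RefSeq.

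The members and the gene lists were chosen with earlier results of these data known, so neither gives independent support. The 10 genes were named with their values. From each list the text names the 4 genes or fewer that led by adjusted p on the side where most of its calls lay and at most 2 on the opposite side, and all tested genes of the other and fused S100 lists. PTPRC, AGER, CD14, SPRR3 and the marker genes stand outside that rule. A gene that the rule names is not reported here. For the called member with the smallest adjusted p in each direction, the 3 most correlated genes with at least 1 CPM were named. Alternatives were DESeq2 1.42.0, limma-voom (limma 3.58.1), relative log expression, upper-quartile and library-size scaling, no filter, a mean count of at least 50, a block for the replicate number and leaving out each library. Depth of 56460553 to 71080000 counts limits precision chiefly for S100A7 and S100A8.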

Additional observations from a re-analysis of the deposited data

How the results depend on the processing

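S100A8, S100A9, S100A11 and S100A16 kept their direction and their call in all 14 alternatives, and S100A7 stayed uncalled in all 14. The count of higher genes among the 10 was 2, was 1 with no filter on low counts, and ran from 0 to 2 with single libraries left out, and it was 0 without PM2.5 replicate 1. Calls over all tested genes also dropped with single libraries left out, to 2712 to 3305 higher genes. The 2712 were those without PM2.5 replicate 1. The count of lower genes among the 10 was 5 and ran from 4 to 6 over the alternatives, with 6 under limma-voom. S100A14, at a log2 fold change of 0.02, turned to -0.00797 without control replicate 1 and to -0.0108 without PM2.5 replicate 2. With single libraries left out it reached 0.0581, and over all 14 alternatives its highest value was 0.104, with library size as the only scaling. S100A13 passed the test with limma-voom (log2 fold change -0.16, adjusted p = 0.0470). The calls of S100A2, S100A4 and S100A6 that were lost are given with those genes, and the cause was not tested. Over all tested genes 3476 were higher and 3523 lower (49.7% higher of those called), and with library size as the only scaling 4770 and 2546 (65.2%). That scaling put the median log2 fold change of all genes at 0.09. The mean log2 ratio of S100A9 to S100A8 was higher with PM2.5 by 0.44 to 0.64 with single libraries left out. With 0.5 counts added it was higher by 0.56. Leaving out 1 library could not turn its direction, because every PM2.5 ratio was above every control ratio. Scaling does not enter a ratio within a library.

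Samples with the same replicate number deviated together with correlations of -0.02 to 0.06, so that the number was not taken as a pairing. With the replicate block 3573 genes were higher and 3658 lower, and S100A4 had a log2 fold change of -0.37 with an adjusted p of 0.0541 by edgeR. S100A2 and S100A6 kept their calls with the block, at adjusted p of 0.0112 and 0.0106 by edgeR. At 33 to 93 counts per library, changes in S100A7 and S100A8 carry the largest errors of the 10 genes.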
